A study of Mus musculus with 14 samples.

Results

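The genes described here make, load or recapture the fast transmitters of the brain: GABA, glycine and glutamate. There are 7 of them among the 55422 entries of the count table. They were chosen by symbol, for what they encode and not by a measured value, but with earlier results of these data known. They are Gad1, Gad2, Slc32a1, Slc6a5, Slc17a6, Slc17a7 and Slc17a8. All 7 passed the filter on low counts in every comparison below.

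They were measured by RNA sequencing in brainstem tissue of 7 mice, from a study of pathogenic tau in the locus coeruleus, the noradrenergic nucleus of the pons. Every mouse, controls included, carried TH-Cre and Slc6a2-eGFP/Rpl10a, on a C57Bl/6 background. The second transgene puts a green fluorescent tag on a protein of the large ribosomal subunit, driven by the noradrenaline transporter gene, so that ribosomes of noradrenergic cells can be captured together with the mRNA they hold. At an age of 2 to 3 months the locus coeruleus was infused with P364S mutant human tau (4 animals, named B, C, L and M) or with EYFP, a yellow fluorescent protein (3 animals, named H, I and K). Each animal gave a homogenate of total brainstem, called pre-IP, and an immunoprecipitate of tagged ribosomes, called IP. The groups are therefore tau pre-IP (n = 4), EYFP pre-IP (n = 3), tau IP (n = 4) and EYFP IP (n = 3), with the fractions of an animal paired by its letter.

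Gad1 and Gad2 encode the glutamate decarboxylases that make GABA from glutamate. Slc32a1 encodes the vesicular transporter that loads GABA and glycine alike into synaptic vesicles, and Slc6a5 encodes the plasma membrane transporter that takes glycine back into glycinergic neurons. Slc17a6, Slc17a7 and Slc17a8 encode the vesicular glutamate transporters VGLUT2, VGLUT1 and VGLUT3. In the hindbrain, VGLUT2 is the usual form in subcortical glutamatergic neurons, VGLUT1 is typical of cerebellar granule cells and of some precerebellar nuclei, and VGLUT3 is found in scattered cells, among them serotonergic neurons. GABAergic and glycinergic neurons surround the locus coeruleus, whose own cells are defined by noradrenaline.

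The libraries held from 41843489 to 65664551 counts each, and 3 counts, taken as the floor of detection, were worth 0.0457 to 0.0717 counts per 1e6 library counts (CPM). The floor covers counting error only. The RNA integrity number was 7.7 to 9 in every library but the IP of EYFP animal I, where it was 4.2. The IP of tau animal B came from the least RNA, 0.1 ng per microlitre. Animal K, labelled EYFP, had 408 and 398 counts of the human tau construct in pre-IP and IP, where the other EYFP libraries had 2 to 18. Animal M, labelled female, had 674 and 1153 counts of 4 Y-linked genes in pre-IP and IP. The noradrenergic identity of the IP was checked with Dbh and Slc6a2, which ran from 8.31 to 26.5 and from 4.83 to 16.2 CPM in pre-IP. In tau IP they ran from 128 to 1292 and from 53.8 to 614 CPM, and in EYFP IP from 29.2 to 56.1 and from 16.0 to 32.9 CPM. Both markers were lower in every EYFP IP library than in every tau IP library.

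Levels of different genes were compared per length, as CPM per kilobase of summed exon length. In pre-IP the order was Slc17a7 at 44.6 ± 4.17, Gad1 at 24.9 ± 4.43, Slc17a6 at 17.03 ± 3.82, Gad2 at 12.97 ± 2.71, Slc32a1 at 9.35 ± 2.22, Slc6a5 at 7.45 ± 3.16 and Slc17a8 at 0.155 ± 0.0387 CPM per kilobase (SD, n = 7). Slc17a7 at the top and Slc17a8 at the bottom stood clear of their neighbours in that order, and each pair of neighbours in between overlapped in range. Within a library the order was steadier: Gad1 was above Slc17a6, and Slc17a6 above Gad2, in 7 of 7 pre-IP libraries, whereas Gad2 was above Slc32a1 in 5 and Slc32a1 above Slc6a5 in 6.

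In the IP the top of the order closed up. Slc17a7 had 25.1 ± 9.41, Gad1 24.5 ± 7.07 and Slc17a6 22.3 ± 6.93 CPM per kilobase, followed by Gad2 at 15.5 ± 4.98, Slc32a1 at 8.16 ± 2.40, Slc6a5 at 5.38 ± 2.21 and Slc17a8 at 0.160 ± 0.0744 (SD, n = 7). Slc17a7 was above Gad1 in 3 of 7 IP libraries and these genes did not differ beyond their spread. Only Slc17a8 remained clear of its neighbour in the IP. The plot of CPM by library shows how unequal the spread was between genes and groups.

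**Figure D1:**
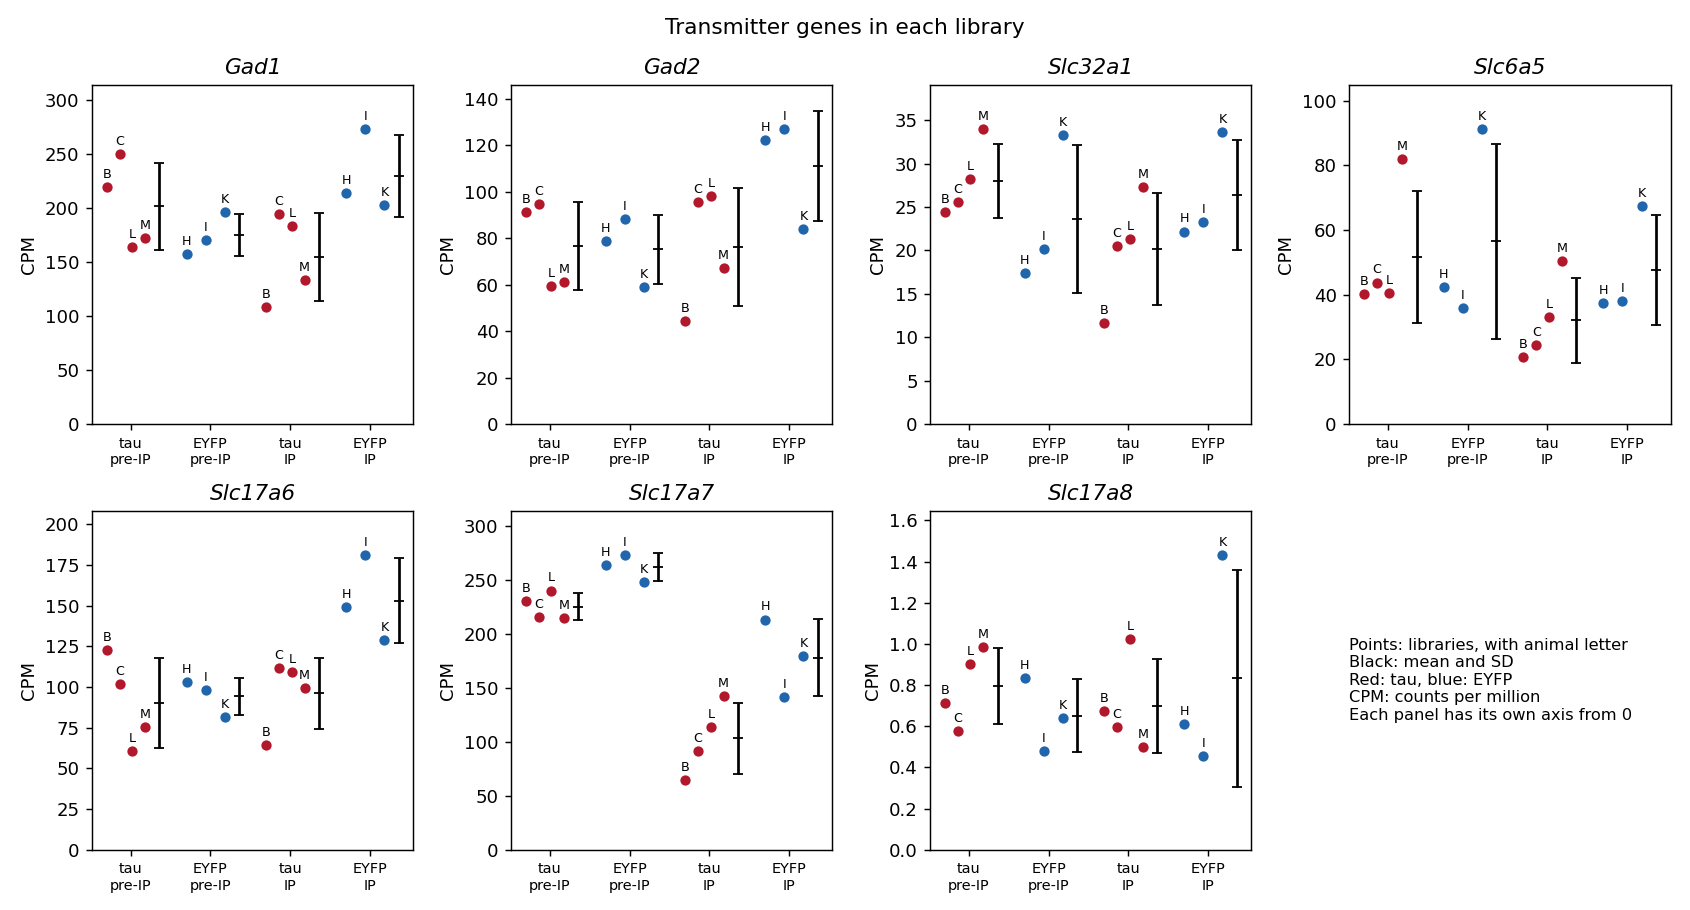
CPM of each of the 7 genes in tau and EYFP libraries of the pre-IP and IP fractions; points are libraries with the letter of the animal, and black bars are the mean and SD of the group (n = 4 tau, n = 3 EYFP). Slc17a7 is the only one of the 7 whose IP points all lie below its pre-IP points, while Slc6a5 is led by animals M and K in both fractions.

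Gad1 (ENSMUSG00000070880.10, GRCm38 chromosome 2, 70553072 to 70602014, plus strand) had 219.9, 249.9, 165 and 173 CPM in the pre-IP of tau animals B, C, L and M, and 158, 171 and 196 CPM in that of EYFP animals H, I and K. Its IP values were 109, 195, 183 and 133 CPM in the tau animals and 214, 273 and 203 CPM in the EYFP animals. The fractions overlapped widely over all animals, yet in the IP every EYFP library was above every tau library. In the IP 15.6% of the genes tested had no overlap between the treatments, in one direction or the other. The antisense gene Gad1os overlaps Gad1 and had 3 to 36 counts per library, against 6114 or more for Gad1. Strand use in the counting is not given in the sources used here, so reads of such a pair cannot be told apart.

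Gad2 (ENSMUSG00000026787.3, chromosome 2, 22622205 to 22693874, plus strand), whose product is the form held at synaptic terminals, had 91.3, 95.0, 59.6 and 61.3 CPM in the pre-IP of B, C, L and M and 78.8, 88.2 and 59.1 CPM in that of H, I and K. In the IP it had 44.6, 95.6, 98.2 and 67.2 CPM in the tau animals and 123, 127 and 84.1 CPM in the EYFP animals. The pre-IP values of L, M and K lay together at 59.1 to 61.3 CPM, below the other 4 animals. The lowest IP value was that of B.

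Slc32a1 (ENSMUSG00000037771.11, chromosome 2, 158610767 to 158615748, plus strand) had 24.5, 25.5, 28.2 and 34.0 CPM in the tau pre-IP libraries of B, C, L and M and 17.4, 20.2 and 33.3 CPM in the EYFP pre-IP libraries of H, I and K. The IP values were 11.7, 20.5, 21.3 and 27.3 CPM in tau and 22.2, 23.2 and 33.6 CPM in EYFP animals. M and K were the highest of their groups in both fractions, and B was lowest in the IP. The vesicular transporter thus overlapped between the fractions and between the treatments.

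Slc6a5 (ENSMUSG00000039728.15, chromosome 7, 49910146 to 49963856, plus strand), the marker of glycinergic neurons, had 40.1, 43.7, 40.6 and 82.0 CPM in the pre-IP of B, C, L and M and 42.4, 35.9 and 91.2 CPM in that of H, I and K. Its IP values were 20.7, 24.3, 33.0 and 50.3 CPM in tau and 37.5, 38.0 and 67.3 CPM in EYFP animals. M and K were high in both fractions and the other 5 pre-IP libraries lay between 35.9 and 43.7 CPM. M thus stood above the rest of the tau animals, and K above the rest of the EYFP animals.

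Slc17a6 (ENSMUSG00000030500.6, chromosome 7, 51622006 to 51671119, plus strand) had 123, 102, 60.6 and 75.7 CPM in the tau pre-IP libraries and 103, 98.4 and 81.6 CPM in the EYFP pre-IP libraries, in the same animal order. The IP values were 64.5, 111 and 109 CPM in B, C and L, 99.3 CPM in M, and 149, 181 and 129 CPM in H, I and K. All EYFP IP libraries exceeded all other libraries of the gene. Between tau IP and EYFP IP alone, 15.6% of the genes tested had no overlap, in one direction or the other. Among tau animals the IP and pre-IP values overlapped.

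Slc17a7 (ENSMUSG00000070570.5, chromosome 7, 45163949 to 45176142, plus strand) had 230.2, 216, 239.9 and 214 CPM in tau pre-IP and 264, 273 and 247 CPM in EYFP pre-IP. In the IP it had 64.8, 91.2, 114 and 143 CPM in tau and 213, 141 and 179 CPM in EYFP animals. Every IP library was below every pre-IP library, though the IP of H, at 213 CPM, came close to the lowest pre-IP library, at 214 CPM. It had the tightest pre-IP spread of the 7 genes relative to its level, at 241 ± 22.5 CPM (SD, n = 7), and in the pre-IP all EYFP libraries were above all tau libraries. Of the genes tested, 9.46% had no overlap between the fractions and 3.12% none between the treatments in pre-IP, in one direction or the other.

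Slc17a8 (ENSMUSG00000019935.16, chromosome 10, 89574020 to 89621253, minus strand) was scarce, with 22 to 87 counts per library. It had 0.712, 0.577, 0.904 and 0.983 CPM in tau pre-IP and 0.836, 0.481 and 0.638 CPM in EYFP pre-IP. The IP values were 0.676, 0.598, 1.03 and 0.497 CPM in tau and 0.609, 0.455 and 1.43 CPM in EYFP animals. These values were above the floor in every library but too few in counts to order the groups, which overlapped in each comparison.

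The first comparison asked what the ribosome capture did to these transcripts, IP against pre-IP in all 14 libraries. The fit had a term for treatment and none for the animal, so the pairing of the fractions was not used. Slc17a7 was lower in the IP, with a log2 fold change of -0.84 (standard error, SE, 0.14; adjusted p 0.000441 by edgeR), and was lower in the IP of 7 of 7 animals. The other 6 genes did not pass the threshold of 0.05, in contrast to the 12 noradrenergic markers, all of which passed and were higher, from 1.23 (Ddc) to 4.24 (Dbh). Thus 1 of the 7 was called, and none was called higher, where 31.0% of the 18792 genes tested were called, 14.7% lower and 16.3% higher in the IP. Slc17a7 was also the only one of the 7 whose fractions did not overlap, which 9.46% of the genes tested shared. The median log2 fold change of the 7 was -0.01 and that of all genes tested 0.00. With the animal as a block 2 of the 7 were called by edgeR, Slc17a7 and Slc6a5, and 6119 of the 18792 genes.

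Slc17a6, the other main glutamate transporter, had a log2 fold change of 0.39 (SE 0.16, adjusted p 0.0665 by edgeR) and a higher value in the IP of 6 of 7 animals, all but B. It passed the threshold without animal B, at 0.58 (edgeR adjusted p 0.00312), and in EYFP animals alone, at 0.70 (edgeR adjusted p 0.0300), where 3.96% of genes were called higher. In tau animals alone it was 0.14. DESeq2 (0.40, adjusted p 0.0479) and limma voom (0.43, adjusted p 0.0313) also called it, so that the gene lay at the edge of the threshold. The adjusted p over its alternatives ran from 0.00312 to 0.69. Slc17a8, the third transporter of the family, had 0.10 (SE 0.32, adjusted p 0.847 by edgeR), and its direction turned without animal K and in tau animals alone.

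The genes of GABA synthesis and vesicular loading did not pass. Gad1 had a log2 fold change of -0.01 (SE 0.16, adjusted p 0.972 by edgeR) and its sign varied over the alternatives, from -0.33 in tau animals alone to 0.38 in EYFP animals alone. Gad2 had 0.28 (SE 0.17, adjusted p 0.242 by edgeR) and passed only without animal B, at 0.44 (edgeR adjusted p 0.0453). Slc32a1 had -0.18 (SE 0.20, adjusted p 0.537 by edgeR), and -0.08 without animal B. A p above the threshold does not show that these levels were equal in the fractions.

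Slc6a5 had a log2 fold change of -0.47 (SE 0.26, adjusted p 0.189 by edgeR). With the animal as a block, which sets each IP against its own homogenate, the value was -0.43 (SE 0.12, adjusted p 0.0162 by edgeR) and passed, where 16.6% of genes were called lower. It also passed with the library-number range as a covariate (-0.46, edgeR adjusted p 0.0413). The values per animal were -0.70, -0.78, -0.26 and -0.74 in B, C, L and M and -0.12, 0.04 and -0.50 in H, I and K. The glycine transporter was thus lower in the IP of 6 of 7 animals, all but I.

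Per-animal ratios of IP to pre-IP place the genes on the scale of the noradrenergic capture. They are log2 values of CPM with TMM scaling and a prior count of 2, so they differ from ratios of the unscaled CPM above. Dbh, the enzyme that makes noradrenaline from dopamine, had 7.13, 6.84, 5.79 and 3.05 in B, C, L and M and 1.64, 1.75 and 1.02 in H, I and K. Slc17a7 had -1.57, -1.17, -1.04 and -0.62 in the tau animals and -0.25, -0.99 and -0.52 in the EYFP animals. B had the highest ratio of Dbh and the lowest of Slc17a7, and also the lowest of 5 of the 7 genes.

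The other transmitter genes had smaller ratios, on either side of 0. Slc17a6 had -0.67, 0.20, 0.88 and 0.36 in the tau animals and 0.60, 0.84 and 0.60 in the EYFP animals. Gad1 had -0.76, -0.29, 0.19 and -0.41 against 0.50, 0.64 and -0.01, and Gad2 had -0.78, 0.08, 0.75 and 0.10 against 0.70, 0.48 and 0.45. The EYFP animals lay close together for Slc17a6 and Gad2, with SDs of 0.14 and 0.13, but not for Gad1, where the SD was 0.34, and in all 3 genes the tau animals ran from B at the bottom to L at the top. Slc32a1 had -0.81, -0.25, -0.37 and -0.35 against 0.41, 0.16 and -0.04, so that all tau animals were below all EYFP animals, as they were for 5.76% of the 18792 genes tested.

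**Figure D2:**
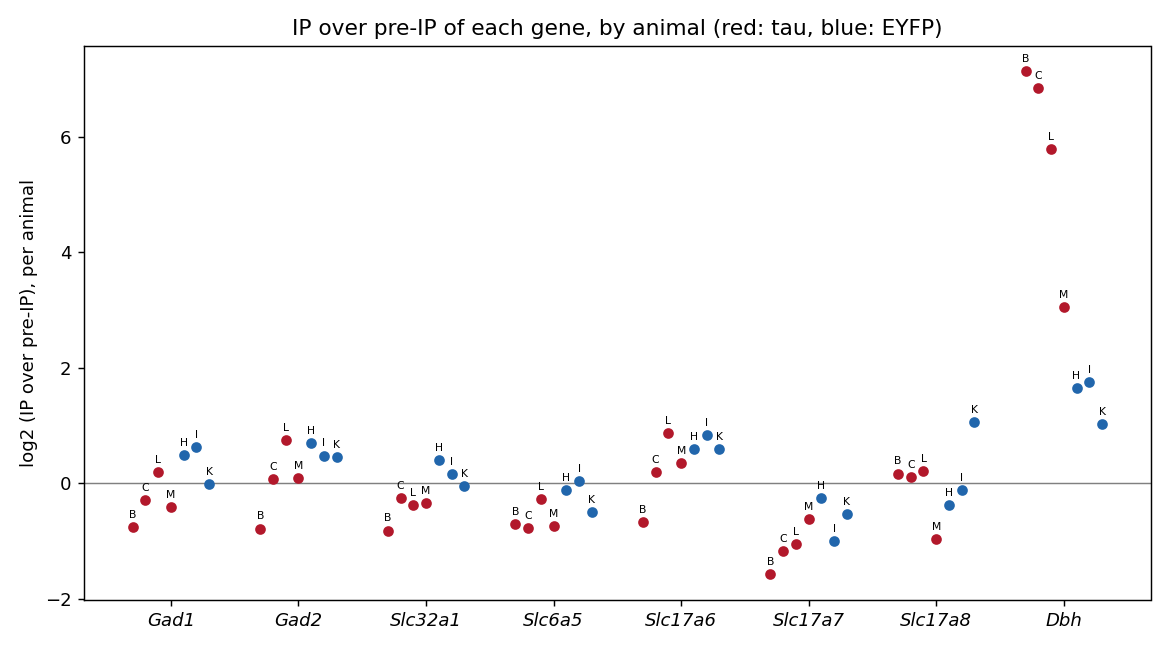
Log2 of IP over pre-IP in each animal (red tau, blue EYFP) for the 7 genes and for Dbh as the noradrenergic reference. The CPM behind it were scaled by TMM. The transmitter genes lie between -1.57 and 1.07, whereas Dbh lies between 1.02 and 7.13, and the ratios of Slc17a7 are below 0 in all 7 animals.

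The change of the glutamate transporters against each other was measured within libraries, a measure added after their values were seen and given with no test. The counts of Slc17a6 were divided by those of Slc17a7, whose summed exon lengths are nearly equal at 5.40 and 5.39 kilobases. The ratio was 0.533, 0.471, 0.252 and 0.353 in the tau pre-IP libraries of B, C, L and M and 0.391, 0.361 and 0.330 in the EYFP pre-IP libraries of H, I and K. In the IP it was 0.995, 1.22, 0.957 and 0.696 in tau and 0.700, 1.28 and 0.720 in EYFP animals. The balance moved towards Slc17a6 in 7 of 7 animals without overlap between the fractions, from 0.384 ± 0.0927 to 0.939 ± 0.247 (SD, n = 7), a mean log2 difference of 1.28 ± 0.44. Leaving out each animal in turn gave 1.18 to 1.36. These genes had the highest and the lowest fitted change of the 7, so a shift of their ratio restates values given above. The share of other gene pairs with such a shift was not computed.

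Among the GABA-synthesising enzymes the shift was smaller. The ratio of Gad2 to Gad1 counts was 0.404 ± 0.0785 in pre-IP and 0.485 ± 0.0602 in IP (SD, n = 7), higher in the IP of 5 of 7 animals and lower in B and I. The ratio of Slc32a1 to Gad1 was lower in the IP of 5 of 7 animals, with a mean log2 difference of -0.16 ± 0.25, and that of Slc6a5 to Slc32a1 was lower in 5 of 7, with -0.26 ± 0.29. Each of these differences was about the size of its SD or below it. That SD is the spread between animals and not the error of the mean, and no test was made.

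**Figure D3:**
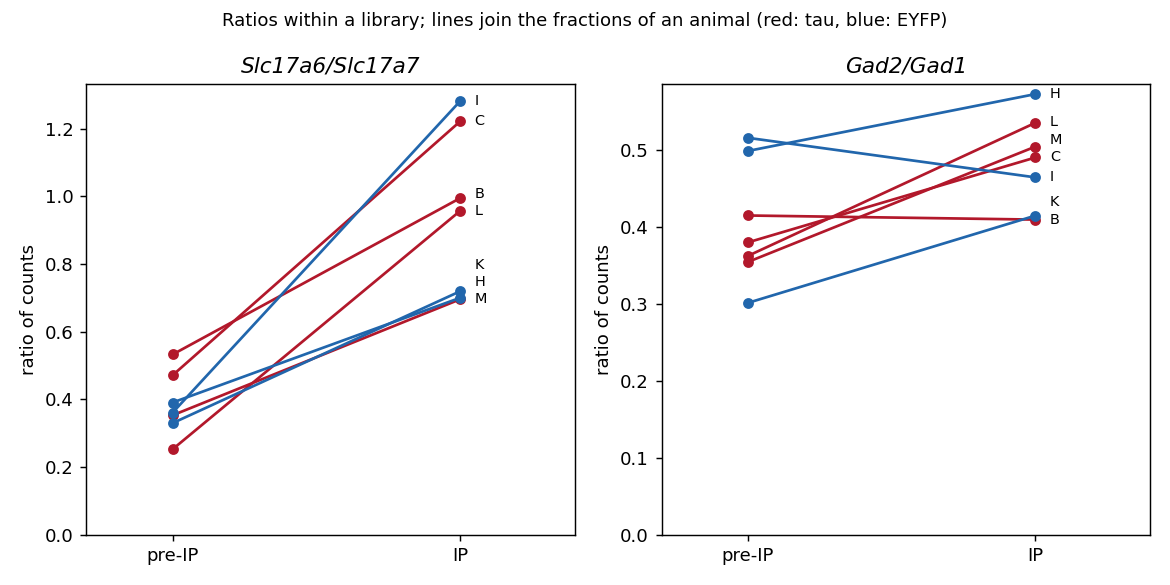
Ratio of counts of Slc17a6 to Slc17a7 and of Gad2 to Gad1 within each library; lines join the pre-IP and IP of an animal (red tau, blue EYFP). The first ratio is 0.252 to 0.533 in pre-IP and 0.696 to 1.28 in IP and goes up in every animal, while the second goes up in 5 of 7.

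Markers of the cells that could carry these transcripts were examined beside this comparison. Of 7 cerebellar granule cell markers 0 passed in IP against pre-IP by edgeR, and their summed level was 119 to 238 CPM in tau pre-IP, 125 to 231 in EYFP pre-IP, 100 to 193 in tau IP and 169 to 205 in EYFP IP. Of 6 Purkinje cell markers 0 passed, with sums of 574 to 873 and 625 to 747 CPM in tau and EYFP pre-IP and of 429 to 811 and 808 to 847 CPM in the IP. Neither Gabra6, which defines granule cells, nor Pcp2, which defines Purkinje cells, was at 0 in any library, with at least 132 and 189 counts. Over all genes tested 31.0% passed. Fitted values were negative for 5 of the 7 granule cell markers, with a median of -0.15. They were negative for 3 of the 6 Purkinje cell markers, with a median of -0.03. The part of such cells in the level of Slc17a7 was not tested.

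Glial markers were also counted. Of the 6 oligodendrocyte markers 2 were called lower in IP against pre-IP by edgeR, and 5 had negative fitted values. Their summed levels were 9928 to 13116 CPM in tau pre-IP, 10018 to 13333 in EYFP pre-IP, 3634 to 10300 in tau IP and 8822 to 13120 in EYFP IP. Of the 6 astrocyte markers 1 was called lower and 4 had negative values. Of the 6 microglial markers 3 were called lower and 4 had negative values. No marker of these lists was called higher. Over all genes tested 14.7% were called lower and 16.3% higher. The astrocyte sums were 802 to 1205 and 828 to 1227 CPM in tau and EYFP pre-IP and 415 to 895 and 781 to 1098 CPM in the IP, and the microglial sums were 158 to 186 and 151 to 181 CPM in pre-IP and 81.5 to 145 and 151 to 179 CPM in the IP. Mog, Aqp4 and Cx3cr1, which define these cells in the same order, had at least 6425, 1402 and 516 counts in every library. Their part in the levels of the transmitter genes was not tested.

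The genes that clear, break down and recycle the transmitters were counted from a list of 28. In IP against pre-IP 4 rose and 7 fell, where 16.3% of all genes tested rose and 14.7% fell. The median log2 fold change of the list was -0.15, beside 0.00 over all genes tested. Among those that fell without overlap between the fractions were membrane transporters of inhibitory transmitters. Slc6a11, a GABA transporter of astrocytes, ran from 235 to 429 CPM in pre-IP and from 56.1 to 221 CPM in IP and fell by 1.01 (SE 0.20, adjusted p 0.0016 by edgeR). Slc6a9, the glycine transporter typical of glia, ran from 101 to 192 and from 31.9 to 91.4 CPM and fell by 1.21 (SE 0.22, adjusted p 0.000785 by edgeR).

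Among those that rose without overlap was a mitochondrial enzyme. Dld, a dehydrogenase subunit shared by the glycine cleavage system and other complexes, ran from 43.2 to 74.8 CPM in pre-IP and from 95.4 to 167 CPM in IP and rose by 0.92 (SE 0.15, adjusted p 0.000326 by edgeR). The largest rise of the list was that of the glutamate transporter gene Slc1a2, at 0.98 (SE 0.14, adjusted p 0.000177 by edgeR), whose fractions overlapped. Glial transporters of the list thus did not all fall. By branch, 3 of the 6 genes of GABA uptake and breakdown fell and 1 rose, 1 of the 7 of glycine uptake and breakdown fell and 1 rose, and 3 of the 15 of glutamate uptake and the glutamine cycle fell and 2 rose.

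Neuronal subtype genes were counted against the same shares of all genes, 16.3% higher and 14.7% lower. Of 15 transcription factors of inhibitory lineages 13 were tested and 3 fell, which were Pax8 (-0.97), Gata2 (-0.85) and Lhx5 (-0.65), while all 13 had negative fitted values, with a median of -0.44. Of 9 factors of excitatory lineages 7 were tested and 1 rose, Foxp2 (0.71), while 4 had negative fitted values, with a median of -0.13. The largest change of that list was that of Barhl2 (-1.30, SE 0.52), which did not pass (adjusted p 0.0687 by edgeR). Of 8 neuropeptide and calcium-binding markers of inhibitory neurons 1 rose, Npy (0.56), and 2 had negative fitted values, with a median of 0.09. The median over all genes tested was 0.00.

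The study's own comparison is tau against EYFP in the IP. All 7 genes had lower fitted values in tau, with log2 fold changes of -0.47 for Gad1 (SE 0.20), -0.45 for Gad2 (SE 0.25), -0.30 for Slc32a1 (SE 0.27), -0.48 for Slc6a5 (SE 0.32), -0.58 for Slc17a6 (SE 0.18), -0.69 for Slc17a7 (SE 0.24) and -0.16 for Slc17a8 (SE 0.60). None passed: edgeR called 0 of the 7, and 0% of the 19472 genes tested. The edgeR adjusted p-values of the 7 ran from 0.319 to 0.934. With animals left out, the values of the others stayed negative, but several moved. Slc6a5 ran from -0.77 without M to -0.14 without K. Slc32a1 ran from -0.47 without M to -0.08 without K and had -0.13 without B, and Gad2 had -0.29 without B. Slc17a8 was -0.02 without M, -0.08 without C and -0.46 without I, and turned to 0.50 without K. At an unadjusted p under 0.05 edgeR had 3 of the 7, Slc17a6 (p 0.0114), Slc17a7 (p 0.0156) and Gad1 (p 0.0395), and 2336 genes in all, and 4.06% of all genes were lower in tau at that p. DESeq2 called 342 genes and limma voom 0, none of the 7 among them.

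The median of the 7 was -0.47 and that of all genes tested -0.08. Gad1 and Slc17a6 did not overlap between tau IP and EYFP IP, as did 15.6% of genes tested. The 12 noradrenergic markers had fitted values higher in tau IP, with a median of 2.69, and their summed level was 1070 to 7168 CPM in tau IP against 564 to 642 CPM in EYFP IP. The astrocyte, oligodendrocyte and microglial lists, with 6 markers each, had negative fitted values for all of their members here, with medians of -0.54, -0.49 and -0.55. Values were also negative for 4 of 5 serotonergic, 4 of 4 cholinergic, 7 of 7 granule cell and 5 of 6 Purkinje cell markers. Their medians were -0.68, -0.45, -0.18 and -0.21. Of 7 markers of neurons in general 3 were negative, with a median of 0.27. In bulk RNA a smaller share of cells of a type and less of a transcript per cell cannot be told apart. The part of these markers in the values of the transmitter genes was not tested.

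Library numbers fell into a lower range, up to 11 (animals B, C, H and I), and an upper range, 17 and above (K, L and M), and the labels do not say what the numbers stand for. The difference between tau and EYFP IP was computed within each, with too few animals in each range for a test. For Slc17a6 it was -0.76 in the lower and -0.29 in the upper range, for Slc17a7 -0.98 and -0.47, for Gad1 -0.53 and -0.35, and for Gad2 -0.74 and -0.03. Slc32a1 had -0.36 and -0.46 and Slc6a5 -0.55 and -0.70, while Slc17a8 changed sign, from 0.44 to -0.94. The direction was thus the same in both ranges for 6 of the 7 genes.

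In pre-IP the same contrast gave log2 fold changes of 0.21 for Gad1 (SE 0.16), 0.04 for Gad2 (SE 0.18), 0.25 for Slc32a1 (SE 0.24), -0.13 for Slc6a5 (SE 0.34), -0.05 for Slc17a6 (SE 0.20), -0.20 for Slc17a7 (SE 0.11) and 0.32 for Slc17a8 (SE 0.34). edgeR called 0 of the 7 and 0% of the 19197 genes tested, with 0 of the 7 and 545 genes at an unadjusted p under 0.05, and DESeq2 and limma voom called 0 genes. Slc17a7 was lower in all tau homogenates than in all EYFP homogenates, a separation that 3.12% of genes tested had in either direction. Within the lower and the upper library-number range its difference was -0.22 and -0.16. Gad1 (0.56 and -0.26), Gad2 (0.20 and -0.01), Slc32a1 (0.46 and -0.14), Slc6a5 (0.15 and -0.70) and Slc17a6 (0.19 and -0.31) turned in direction between the ranges. Leaving out single animals turned further values: Gad2 was -0.05, -0.06 and -0.07 without B, C and K, Slc17a6 was 0.02 and 0.10 without M and L, and Slc6a5 was 0.47 without K. Slc32a1 kept its sign and ran from 0.04 without H to 0.63 without K. Gad1 ran from 0.11 without C or H to 0.35 without K, and Slc17a8 from 0.15 without I to 0.48 without H. The median of the 7 was 0.04, beside 0.00 over all genes tested.

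Whether the ratio of IP to pre-IP differed between the treatments was tested with an interaction term, in a fit without a block for the animal. The fitted interaction was negative for all 7, at -0.68 for Gad1 (SE 0.27), -0.54 for Slc32a1 (SE 0.39), -0.53 for Slc17a6 (SE 0.30), -0.49 for Slc17a7 (SE 0.26), -0.49 for Gad2 (SE 0.33), -0.47 for Slc17a8 (SE 0.66) and -0.36 for Slc6a5 (SE 0.54). Without animal B the values of Slc17a6 and Gad2 were -0.26 and -0.27, and without K those of Slc6a5 and Slc17a8 were -0.62 and 0.14. edgeR called 0 of the 7 and 0% of the 20495 genes tested, of which 1223 had an unadjusted p under 0.05, as did Gad1 (p 0.0242, edgeR adjusted p 0.807). DESeq2 called 52 genes and limma voom 0, and none of the 7 was among them. With the animal as a block Gad1 had -0.69 (SE 0.24, edgeR p 0.0157) and Slc32a1 -0.62 (SE 0.22, edgeR p 0.0165). Both had an edgeR adjusted p of 0.531. That fit called 0 genes, and 1744 of the 20495 tested had an unadjusted p under 0.05. In the tau animals alone Slc17a7 fell in the IP by 1.08 (edgeR adjusted p 0.00684), where 10.3% of genes were called lower, and in the EYFP animals alone by 0.56 (edgeR adjusted p 0.0792). This difference between treatments did not pass in the interaction test, so Slc17a7 is not shown to be recovered differently in tau animals.

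**Figure D4:**
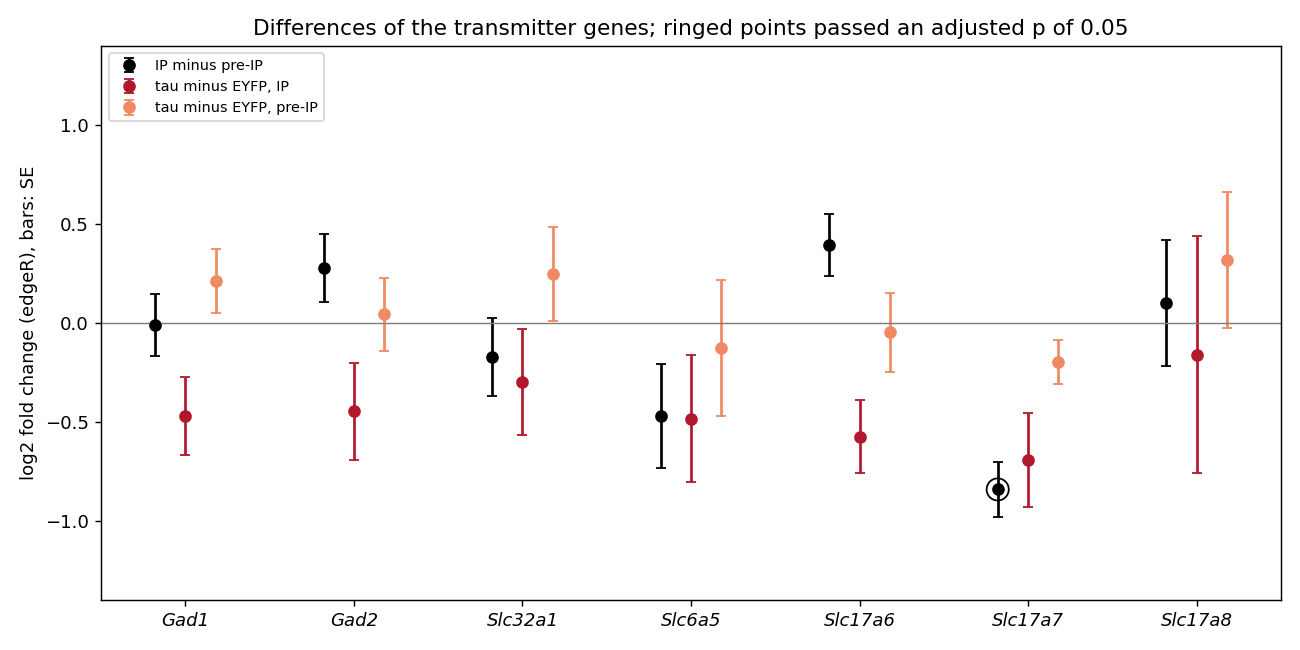
Log2 fold changes of the 7 genes by edgeR with their SE in 3 comparisons, with a ring around those with an adjusted p under 0.05. Slc17a7 passed in IP against pre-IP, and 0 of the 7 passed in either comparison of tau with EYFP.

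The homogenates were also set side by side by library-number range. This was done after the values of M and K, which lie in the upper range, had been seen, so the values are a description with no test. Gad2 had a mean of 60.0 ± 1.12 CPM in the upper range (SD, n = 3) and of 88.3 ± 6.94 CPM in the lower (SD, n = 4). The fitted log2 difference, with a term for treatment, was -0.50. Slc32a1 had 31.8 ± 3.17 and 21.9 ± 3.78 CPM, a difference of 0.59. Slc6a5 had 71.3 ± 26.9 and 40.5 ± 3.46 CPM, a difference of 0.90, and here L, at 40.6 CPM, lay with the lower range and not with M and K. Slc17a6 differed by -0.48, Gad1 by -0.11, Slc17a7 by 0.04 and Slc17a8 by 0.40. Gad2 and Slc17a6 were lower and Slc32a1 was higher in the upper range without overlap, and 21.2% of the genes tested did not overlap in one direction or the other. Without animal K the difference was 0.35 for Slc32a1 and 0.59 for Slc6a5.

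Markers of several cell types moved with these ranges. In the upper range 6 of 7 cerebellar granule cell markers and 5 of 6 Purkinje cell markers had negative fitted values, with medians of -0.57 and -0.92, and their summed levels were 119 to 178 against 180.4 to 238 CPM and 574 to 738 against 664 to 873 CPM. None of the 5 serotonergic and 1 of the 4 cholinergic markers had a negative value, with medians of 0.86 and 0.60, and summed levels of 69.1 to 130.4 against 52.0 to 64.0 CPM and of 55.3 to 86.0 against 45.1 to 50.6 CPM. Gabra6, Pcp2, Tph2 and Chat, which define these types in the same order, were at 0 in no homogenate. RNA concentrations of the homogenates were 11.4 to 13.9 ng per microlitre in the upper and 16 to 29.9 in the lower range. The part of these cells and of the RNA concentration in the levels of the transmitter genes was not tested.

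The genes whose pattern over the 14 libraries was most like that of each transmitter gene were found by Pearson's r of log2 CPM among 11480 genes with a mean of at least 5 CPM. The libraries share animals, fractions and depth, and the values are a description only. Nearest to Slc17a7 were Galnt9 (r 0.975), Akt2 (0.972) and Zfp169 (0.969), and near to Slc17a6 were Klhl4 (0.944) and Ppp4r3a (0.935). Gad2 was nearest to Kat6a (0.969), and Zfp654 (0.941) was also close. Gad1 had no such close match, with Tcaf1 (0.868), Hspa2 (0.848) and Ctnnb1 (0.834). Slc32a1 was nearest to Penk (0.964), the precursor of enkephalins, followed by Adss1 (0.927) and Bag3 (0.926), and Slc6a5 to Lamp5 (0.949), Tpbg (0.940) and Sec14l2 (0.934). Slc17a8, at few counts, had its highest value with Kdelr2 (0.728), from which nothing is read.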

How the data were processed

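RNA was measured in 14 libraries of 7 mice. The deposited values are raw read counts for each gene, as whole numbers. Per the submitters' processing notes the reads went through FastQC, Trim Galore, STAR and featureCounts on GRCm38 (mm10); versions, strand setting and multi-mapping rules are not given in the sources used here. Libraries were made from polyadenylated RNA with a low-input SMART-Seq kit and Nextera XT, per the labels' protocols. Per the file headers, a deposited sheet lists an RNA quality score (the integrity number), concentration and raw reads, and the gene table gives the summed exon length. The header of the count table is shifted by empty cells, so columns were read by position, and the tau construct counts then equal those of the sheet in all 14 libraries. Symbols came from the deposited gene table, and for 3755 of 55422 entries from GENCODE M21, and 11 had none. Starts and ends of the 7 genes are those of the gene table and equal GENCODE.

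Genes were tested with edgeR 4.0.16 (quasi-likelihood F test, R 4.3.3) with filterByExpr, TMM scaling, Benjamini-Hochberg adjustment over all genes tested and a threshold of 0.05, and were checked on simulated counts. CPM are per library total, without TMM. The exceptions, with TMM scaling, are the per-animal ratios, the tau against EYFP differences within library-number ranges and the values behind Pearson's r. The standard error is the log2 fold change over the square root of F. The labels name animals by letter, and the same letter marks IP and pre-IP of the same animal. Deviations from the group means over 18792 genes correlated within animals by 0.247 on average (0.148 to 0.405), and 7 of 7 animals correlated best with their own fraction. The animal was used as a block in an alternative. The 18 pairs of libraries within groups all differed by more than sampling noise (lowest chi-square per degree of freedom 26.9). The p-values of tau against EYFP within a fraction measure the spread between animals. In the main fits that hold both fractions, the libraries of an animal were entered as independent. Those p-values measure the spread between libraries.

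The genes and lists were chosen with earlier results of these data known. The 7 genes are always reported. Of the cycle list, genes past the threshold without overlap were named, at most 4 per direction, and Slc1a2 was added for its largest rise. Of other lists at most 4 were named, by largest change, and so were the 3 genes nearest in pattern to each of the 7. Alternatives were DESeq2 size factors, the DESeq2 1.42.0 Wald test, limma 3.58.1 voom with quality weights, a filter at a mean of 50 counts or none, the library-number range as covariate, each animal left out, the animal block, each treatment alone and, for ratios, a prior count of 0.5 and unscaled totals. Some genes that these rules select are not reported here.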

Additional observations from a re-analysis of the deposited data

Results flagged for a closer look

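Within groups of 4 samples, 21 sets of values were examined for a sample far from the others, and 3 held such a sample, where chance gives about 1 in 20. Slc6a5 in tau pre-IP was 82.0 CPM in animal M, far above the other 3 tau homogenates at 40.1 to 43.7 CPM. The log2 ratio of IP to pre-IP of Slc6a5 was -0.26 in animal L, while the other 3 tau animals had -0.70 to -0.78. The log2 ratio of Slc17a8 was -0.96 in animal M, against 0.12 to 0.21 in the other 3 tau animals, and it rests on few counts. The cause of each was not tested.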

How the results depend on the processing

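In IP against pre-IP the number of the 7 genes called was 2 by DESeq2, by voom, with a mean of at least 50 counts (which leaves Slc17a8 without a value) and with the animal block, and 3 with the library-number range as covariate, against 1 in the main analysis; leaving out each animal gave 1 to 3. The block changed no call of the 7 other than that of Slc6a5. Over all 18792 genes tested, 5828 were called in the main analysis, 6625 by DESeq2 and 6252 by voom. The block gave 6119 and the covariate 6383. With the stricter filter 5946 of 15221 were called, and 4291 to 5920 genes with animals left out. EYFP animals alone gave 1218 called genes. Slc17a7 was called in 15 of 16 alternatives. Directions turned as follows, with the cause not tested. In IP against pre-IP, Gad1 was 0.031 by voom, 0.00092 with the stricter filter, 0.38 in EYFP animals and -0.12 to 0.11 with animals left out; Slc32a1 was 9.58e-05 by voom and 0.14 in EYFP animals; Slc17a8 was -0.13 in tau animals and -0.15 to 0.28 with animals left out. In tau against EYFP in IP, Slc17a8 ran from -0.46 to 0.50 with animals left out, and in the interaction from -0.84 to 0.14 (without K). In tau against EYFP in pre-IP, Slc6a5 was 0.13 by voom, and with animals left out it ran from -0.46 to 0.47 (without K), Gad2 from -0.071 to 0.18 and Slc17a6 from -0.23 to 0.098. Counts of all genes called were 342 by DESeq2, 113 without a filter and 0 to 128 with animals left out in the IP; 44 without a filter and 0 to 1 with animals left out in pre-IP; and 52, 67 and 0 to 56 in the interaction. Depth limits Slc17a8 alone among the 7, at 22 to 87 counts per library, and the number of animals limits the comparisons of treatment.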
